A study of Arabidopsis thaliana with 3 samples.

Results

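The GDSL lipase genes analysed here are 51 of the 19777 genes in the authors' deposited table. They are the rows whose gene name contains GDSL, after 5 identifiers were left out by the rule, of which 2 carry GDSL in their name. Meristems of the inflorescence together with young buds were sampled from Arabidopsis thaliana grown in long days, and poly(A) RNA was sequenced in 3 independent lines with 1 library per line. The lines carried mutations in sep1, sep2 and sep3 and expressed SEP3Δtet, named in the series title as a splice variant of the floral MADS-domain gene SEPALLATA3. The comparison group of the authors' table is the sep1 sep2 sep3 triple mutant without that transgene, so both groups carry the 3 sep mutations. For the promoter of the transgene, the age of the plants and the number of mutant libraries, nothing is given in the sources used here. Per the labels, the oldest buds were at stages 10 to 11 in line 1, whereas line 2 had stages 10 to 12 and line 3 had stages 10 to 13. No bud stage of the triple mutant is given in the sources used here, so whether stage differed between the groups is unknown.

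GDSL enzymes are esterases and lipases of the SGNH hydrolase superfamily, named for the Gly-Asp-Ser-Leu motif that holds the catalytic serine near the start of the protein. Most are secreted or pass through the endomembrane system, and they cut or transfer acyl groups on lipids, on cutin precursors and on cell wall polysaccharides. In flowers, members of the family are known from the cuticle of floral organs and from the tapetum, the anther layer that feeds the pollen and supplies its coat. Most of the genes described below have no individual function on record in the annotation used.

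The Gly-Asp-Ser part of the motif can be read in the genes that changed. All 51 genes were found in the TAIR10.1 annotation of RefSeq with GDSL in the product name, among 58 such genes that are in the table; 43 further genes of that kind were not analysed here. Codons for Gly-Asp-Ser were found in frame within the first 100 codons of 48 genes, and the codon after them was a leucine codon in 14 and another codon in 34. The coding stretches around these codons are shown for the 9 genes that passed the test, 5′ to 3′ on the coding strand. The 12 bases in capitals are the Gly-Asp-Ser codons and the codon after them.
AT1G20132: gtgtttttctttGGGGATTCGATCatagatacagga
AT4G16230: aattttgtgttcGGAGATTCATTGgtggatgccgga
AT1G74460: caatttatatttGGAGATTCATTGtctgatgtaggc
AT5G41890: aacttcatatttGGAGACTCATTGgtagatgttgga
AT5G15720: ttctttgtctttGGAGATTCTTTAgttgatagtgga
AT3G62280: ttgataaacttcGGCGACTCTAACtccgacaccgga
AT3G48460: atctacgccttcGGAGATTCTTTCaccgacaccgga
AT3G53100: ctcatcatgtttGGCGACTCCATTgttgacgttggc
AT5G45960: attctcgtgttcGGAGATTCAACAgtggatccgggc
Of the 8 genes that rose, 4 hold the leucine codon (AT4G16230, AT1G74460, AT5G41890 and AT5G15720) and 4 hold another codon. The gene that fell, AT5G45960, holds another codon as well.

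A group of 8 GDSL genes rose in the SEP3Δtet lines, 1 fell, and 42 did not pass the test at an adjusted p of 0.05 in the authors' deposited table. Of all genes tested there, 17.5% were called, 11.6% as higher and 5.88% as lower, and the shares of the GDSL genes were 17.6%, 15.7% and 1.96%. At this threshold the share called in either direction was therefore close to that of the whole table. Shares at stricter settings are given below. Fold changes ran from -0.99 to 8.36 on the log2 scale in the authors' deposited table, with a median of -0.11, against a median of -0.0009 over all genes. Of the GDSL genes, 9 reached 1 or more on the log2 scale, 6 of them called, and 0 reached -1 or less in the authors' deposited table. The whole table was uneven in the same direction, with 1892 genes at 1 or more and 132 at -1 or less. In RNA of whole meristems and buds, more cells of a type and more RNA per cell cannot be told apart. Each value is the authors' estimate over their libraries. The level in each line was not used here, depth is unknown, and a p-value covers no more than the spread among the libraries of that fit.

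**Figure D1:**
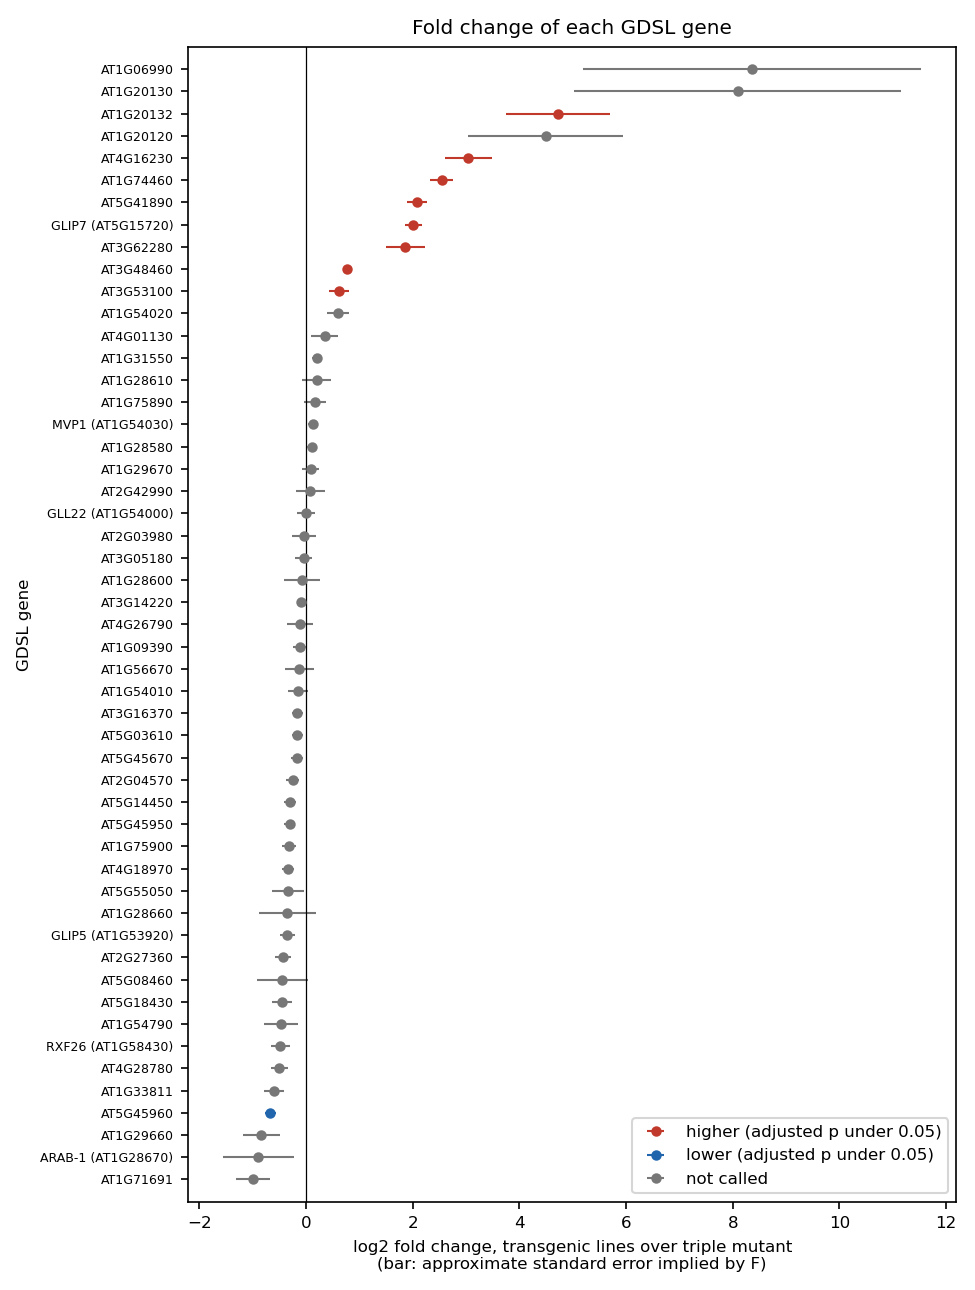
Plotted is the log2 fold change of each of the 51 GDSL genes (points), lines over triple mutant, in the authors' deposited table, with bars of 1 approximate standard error implied by F. Colour marks the 8 genes called higher, the 1 called lower and the 42 not called; the 4 largest values, from 4.50 to 8.36, have the widest bars.

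The row of SEP3 does not separate transcripts of the transgene from those of the mutated SEP3 locus. SEP3 was higher in the lines by a log2 fold change of 2.27 in the authors' deposited table (approximate SE 0.24, adjusted p = 1.1e-04). SEP1 (-0.59, adjusted p = 0.288) and SEP2 (0.67, adjusted p = 0.678) did not pass the test in the authors' deposited table.

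The clearest increases were found for 3 genes whose fold change was large against its error. GLIP7 (AT5G15720), annotated as GDSL-motif lipase 7 and as expressed during petal differentiation and in embryo stages, was 4.05-fold higher in the authors' deposited table. Its log2 fold change was 2.02 (approximate SE 0.16, adjusted p = 4.7e-06), at an average abundance of 4.22 log2 CPM in the authors' deposited table. Its gene model spans 5124525 to 5126486 of chromosome 5 in TAIR10.1, minus strand. AT1G74460, annotated as a carboxylesterase expressed in flower and carpel among other organs, was 5.83-fold higher in the authors' deposited table (2.54 on the log2 scale, approximate SE 0.21, adjusted p = 5.9e-06). It lies on the minus strand of chromosome 1, from 27987890 to 27989865. AT5G41890, annotated as expressed in the flower alone, was 4.24-fold higher in the authors' deposited table (2.08 on the log2 scale, approximate SE 0.18, adjusted p = 8.9e-06). It lies on the minus strand of chromosome 5, from 16764211 to 16766702. These 3 genes and AT3G48460 were the 4 GDSL genes called under a Bonferroni adjustment over the authors' deposited table, all higher, where the share of all genes was 2.5% in either direction, 2.43% higher and 0.0708% lower. With a threshold of 0.01 on the adjusted p, 7 GDSL genes were higher and 1 lower, against 9.61% of all genes called, 7.49% higher and 2.12% lower. With a fold change of at least 1 on the log2 scale as well as an adjusted p of 0.05, 6 were higher and 0 lower, against 8.27% of all genes, 7.9% higher and 0.374% lower. Among genes of at least 1 log2 CPM, adjusted alone, 43 GDSL genes were tested, and 7 were higher (16.3%) and 1 lower (2.33%). Of all such genes 15.9% were called, 9.68% higher and 6.18% lower.

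AT3G48460 showed a smaller change with a narrow error. Its log2 fold change was 0.77 in the authors' deposited table (approximate SE 0.081, adjusted p = 3.6e-05), a 1.71-fold increase. The annotation places its RNA in 22 plant structures, and at 5.35 log2 CPM it was the most abundant of the 8 genes that rose in the authors' deposited table. The gene lies on the plus strand of chromosome 3, from 17949416 to 17951250. AT3G53100, annotated for 21 plant structures, rose by 0.63 on the log2 scale in the authors' deposited table (approximate SE 0.19, adjusted p = 0.041), and its call was lost at an adjusted p of 0.01. It lies on the minus strand of chromosome 3, from 19684686 to 19686984.

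The other 3 genes that rose were scarce. AT4G16230, annotated for 16 plant structures, had a log2 fold change of 3.05 (approximate SE 0.44, adjusted p = 4.8e-04) at 1.07 log2 CPM in the authors' deposited table. Its gene model on chromosome 4, from 9185298 to 9187170 on the plus strand, is marked as partial. AT3G62280, annotated for hypocotyl, root, flower and cultured cells, had a log2 fold change of 1.87 (approximate SE 0.37, adjusted p = 0.0039) at 0.82 log2 CPM in the authors' deposited table. It lies on the minus strand of chromosome 3, from 23049324 to 23051309. AT1G20132 had the largest fold change of the 8, 4.72 on the log2 scale (approximate SE 0.98, adjusted p = 0.0083), at 1.55 log2 CPM in the authors' deposited table.

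**Figure D2:**
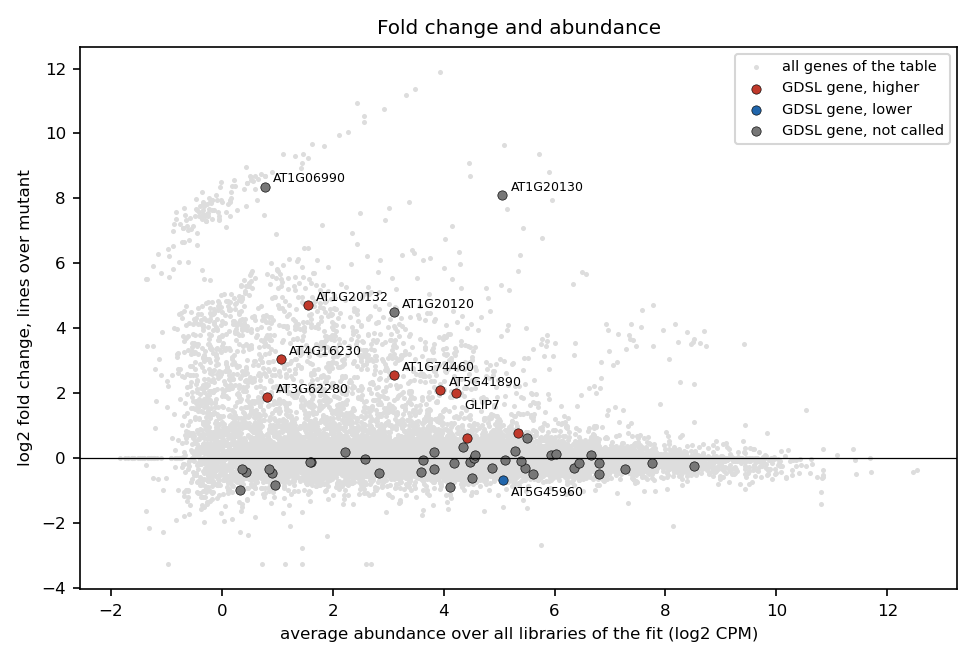
Plotted is the log2 fold change (y axis, lines over triple mutant) against average abundance in log2 CPM over all libraries (x axis), both from the authors' deposited table, for all 19777 genes (light points) and the 51 GDSL genes (dark or coloured points). The GDSL genes that rose lie between 0.82 and 5.35 log2 CPM, and the 9 GDSL genes at 6 log2 CPM or more lie close to 0.

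AT5G45960 was the 1 GDSL gene that fell. Its log2 fold change was -0.66 in the authors' deposited table (approximate SE 0.11, adjusted p = 9.8e-04), at 5.07 log2 CPM. It is annotated as a lipase gene expressed in 11 plant structures, and lies on the minus strand of chromosome 5, from 18636928 to 18640401. Its neighbour AT5G45950, annotated for 20 structures, had a log2 fold change of -0.30 and did not pass the test (approximate SE 0.10, adjusted p = 0.059) in the authors' deposited table.

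Beyond the calls, many GDSL genes had small unadjusted p-values. An unadjusted p under 0.05 was found for 26 of the 51 genes, with 13 in each direction, in the authors' deposited table. Of all genes tested, 29.7% had one, 17.1% higher and 12.6% lower, and of the GDSL genes 51% did. Genes lower at this level without being called were 23.5% of the GDSL genes and 6.72% of all genes, and higher ones 9.8% and 5.48%. In the authors' deposited table the 12 uncalled lower GDSL genes ran from -0.99 to -0.30 on the log2 scale. Their adjusted p ran from 0.054 to 0.135. Among them were AT1G33811 (-0.60, adjusted p = 0.056), AT4G28780 (-0.50, adjusted p = 0.056) and AT1G71691 (-0.99, adjusted p = 0.054) in the authors' deposited table. AT1G71691 was the scarcest of the 51 genes, at 0.32 log2 CPM. All 3 are annotated as carboxylesterase genes, as is AT1G74460, which rose. The 3 were named after their values were seen, and none of the 12 counts as a fall.

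**Figure D3:**
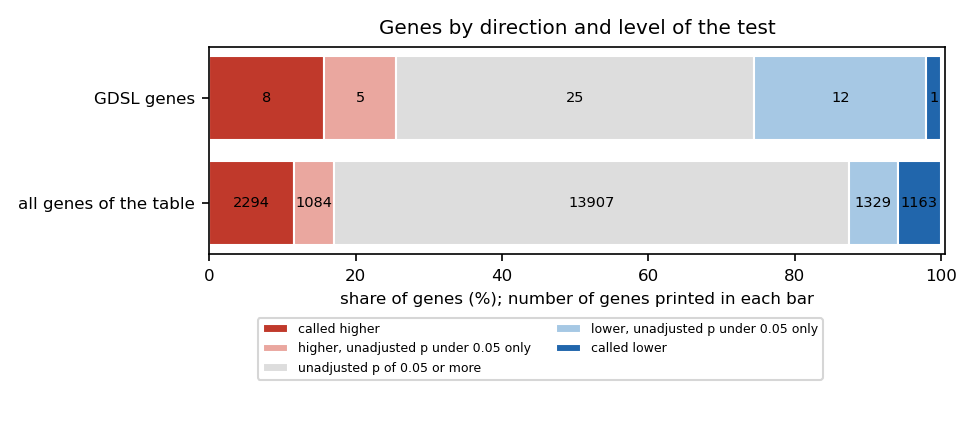
Share of genes in percent (bar length) and number of genes (printed) by direction and level of the test in the authors' deposited table, for the 51 GDSL genes and all 19777 genes. Of the GDSL genes 12 (23.5%) were lower and 5 (9.8%) higher at an unadjusted p under 0.05 without being called. Of all genes 1329 (6.72%) were lower and 1084 (5.48%) higher in that way.

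The 3 largest increases without a call had wide errors. AT1G06990, annotated for 4 plant structures, among them petal, sepal and flower, had a log2 fold change of 8.36 (approximate SE 3.17, adjusted p = 0.128) at 0.78 log2 CPM in the authors' deposited table. AT1G20130 had one of 8.09 (approximate SE 3.06, adjusted p = 0.136) at 5.06 log2 CPM in the authors' deposited table. Its product is annotated with a pistil-specific extensin-like domain beside the lipase domain. AT1G20120 had one of 4.50 (approximate SE 1.45, adjusted p = 0.084) at 3.11 log2 CPM in the authors' deposited table. These are the only GDSL genes with an approximate SE above 1. The labels give a different oldest bud stage for each of the 3 lines, and whether the width follows the lines was not tested, because no value per line was used here. The missed calls do not show equal levels. A fitted fold change of a gene with few or no reads in 1 group depends on the prior count of the fit and is no bound on the true change.

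AT1G20120, AT1G20130 and AT1G20132 are neighbours on the plus strand of chromosome 1, from 6975339 to 6977267, from 6977753 to 6980241 and from 6981264 to 6983627. The next GDSL gene beside them, AT1G20135, was not analysed here. In AT1G20130 no Gly-Asp-Ser codons were found within the first 100 codons. The stretch around those codons in AT1G20120 is shown to set it beside that of AT1G20132 above, with the same 12 bases in capitals.
AT1G20120: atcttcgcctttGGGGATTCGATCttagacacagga
The coding sequences of AT1G20120 and AT1G20132 shared 63.8% of aligned positions, and AT1G20130 shared 50.1% with the first and 52.1% with the second. All 3 had fold changes of 4.50 or more on the log2 scale in the authors' deposited table, and of them AT1G20132 passed the test.

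GDSL genes of the annotation lay next to each other in 10 runs that hold at least 1 gene analysed here, and 21 of the 51 genes lay in such runs. AT4G16230, which rose by 3.05 in the authors' deposited table, lies between AT4G16220 and AT4G16233, which were not analysed here. Log2 fold changes of the others of the 51 genes in runs, apart from the run of AT1G20120, lay between -0.89 and 0.60 in the authors' deposited table. Runs were read from RefSeq product names with GDSL. AT1G75910, AT1G75920 and AT1G75930, left out by the rule and next in number to AT1G75900, are in none of these runs. Their log2 fold changes were 6.31 (not called), 3.91 (called higher) and 10.05 (not called) in the authors' deposited table. In the run of 5 on chromosome 1 that holds GLL22 (AT1G54000), GLL23 (AT1G54010), AT1G54020 and MVP1 (AT1G54030), 0 of the 4 genes measured passed the test. In the authors' deposited table GLL22 stood at -0.005 (adjusted p = 0.993) and GLL23 at -0.15 (adjusted p = 0.651). MVP1, whose mutation is annotated to disturb the endoplasmic reticulum and protein trafficking, had a log2 fold change of 0.13 in the authors' deposited table (adjusted p = 0.405). In the authors' deposited table AT1G54020 stood at 0.60 (approximate SE 0.20, adjusted p = 0.068). Coding sequences of GLL22 and GLL23 shared 91.2% of aligned positions, so their separate values are uncertain where the authors' counting could split reads between them.

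Further neighbouring GDSL genes lie in separate runs on chromosome 1 between 10044337 and 10076457. AT1G28580 (0.11), AT1G28600 (-0.07) and AT1G28610 (0.20) did not pass the test in the authors' deposited table. Nor did AT1G28660 (-0.35, approximate SE 0.53) and ARAB-1 (AT1G28670), annotated for lipid metabolism and glycerol biosynthesis, at -0.89 (approximate SE 0.66, adjusted p = 0.444) in the authors' deposited table. AT1G28660 and ARAB-1 shared 91.9% of aligned coding positions, the highest share among the 16 pairs compared, so their values are uncertain in the same way. AT1G75890 (0.17) and its neighbour AT1G75900 (-0.32) did not pass the test in the authors' deposited table, nor did AT3G14220 (-0.09), whose neighbour ESM1, left out by the rule, was lower (-2.08, adjusted p = 0.0011).

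**Figure D4:**
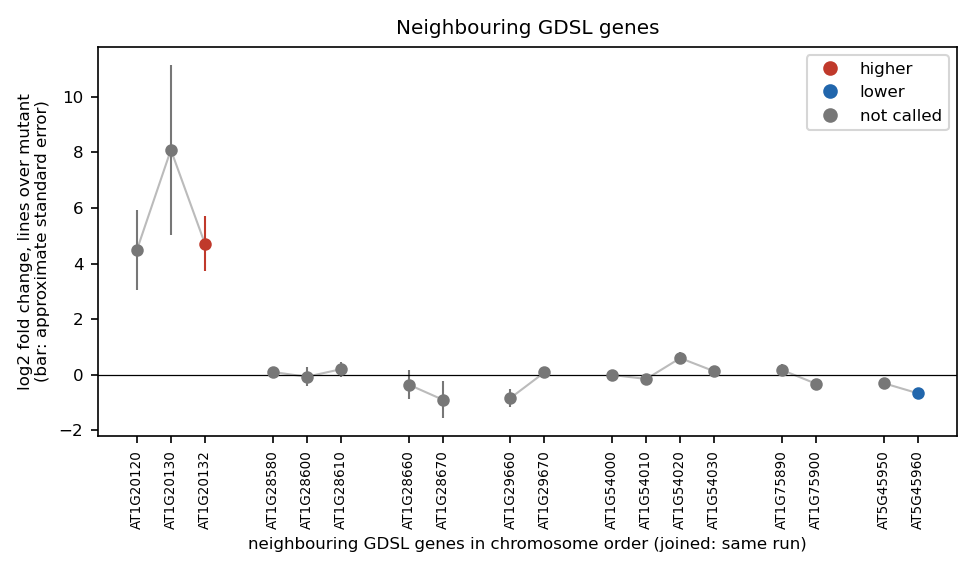
Plotted is the log2 fold change of neighbouring GDSL genes (points, in chromosome order, joined within a run) in the authors' deposited table, with bars of 1 approximate standard error. The run of AT1G20120, AT1G20130 and AT1G20132 lies at 4.50 or more, and the other runs shown, those with at least 2 of the 51 genes, lie between -0.89 and 0.60. The left-out genes AT1G75910, AT1G75920 and AT1G75930 are not shown.

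The most abundant GDSL genes changed little. AT2G04570, at 8.52 log2 CPM, had a log2 fold change of -0.25 (approximate SE 0.11, adjusted p = 0.171) in the authors' deposited table. In the authors' deposited table AT5G45670, at 7.76 log2 CPM, stood at -0.16 (adjusted p = 0.368), and AT4G18970, at 7.28 log2 CPM, stood at -0.34 (adjusted p = 0.074). Per kilobase of transcript the same 3 genes led the 51, at 7.98, 6.94 and 6.63 log2 CPM per kb. RXF26 (AT1G58430), which the annotation describes as encoding an anther-specific proline-rich protein, stood at -0.48 (approximate SE 0.18, adjusted p = 0.099) at 6.80 log2 CPM in the authors' deposited table. None of GLIP5 (AT1G53920), annotated as GDSL-motif lipase 5 (-0.35, adjusted p = 0.111), AT2G42990 (0.08, adjusted p = 0.884) and AT1G54790 (-0.47, adjusted p = 0.374) passed the test in the authors' deposited table. Of the 9 GDSL genes at 6 log2 CPM or more, 7 had a negative fold change, and of all genes at that abundance 66.9% did.

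Gene structure varied little among the 51. In the transcript with the longest coding sequence, 39 genes have 5 exons, and coding lengths run from 756 bp (AT4G16230, whose model is partial) to 1605 bp (AT1G20130) with a median of 1128 bp. Chromosome 1 holds 26 of the genes and 2 of the 9 that passed the test, chromosome 5 holds 10 and 3, chromosome 3 holds 6 and 3, chromosome 4 holds 5 and 1, and chromosome 2 holds 4 and 0. The share of all genes called on each chromosome was not computed, so these counts are a description only.

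SEP proteins bind the CArG box. The windows from 250 bases before the annotated gene start to 50 bases after it were searched for the letters CCWWWWWWGG, where W is A or T. No mismatch was allowed, and other forms of the box were not searched for. In this form the box was found in 1 of 51 windows of GDSL genes (1.96%, exact binomial 95% interval 0.050 to 10.4%) and in 3.05% of 27443 windows of all genes. The letters CANNTG, the E-box bound by bHLH factors such as those of the tapetum, were found in 26 of 51 windows (51%) and in 61.7% of all windows. Both motifs read the same on both strands. The windows of the 3 genes with the clearest increases are shown with CANNTG in capitals, 5′ to 3′ on the gene's strand, from RefSeq TAIR10.1: chr1:27989816-27990115 (minus), chr5:16766653-16766952 (minus) and chr5:5126437-5126736 (minus).
AT1G74460: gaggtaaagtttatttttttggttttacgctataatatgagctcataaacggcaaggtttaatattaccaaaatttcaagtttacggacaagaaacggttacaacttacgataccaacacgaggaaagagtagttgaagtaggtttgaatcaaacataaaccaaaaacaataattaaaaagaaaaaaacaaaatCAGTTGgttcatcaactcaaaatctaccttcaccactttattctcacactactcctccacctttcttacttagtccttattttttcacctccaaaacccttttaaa
AT5G41890: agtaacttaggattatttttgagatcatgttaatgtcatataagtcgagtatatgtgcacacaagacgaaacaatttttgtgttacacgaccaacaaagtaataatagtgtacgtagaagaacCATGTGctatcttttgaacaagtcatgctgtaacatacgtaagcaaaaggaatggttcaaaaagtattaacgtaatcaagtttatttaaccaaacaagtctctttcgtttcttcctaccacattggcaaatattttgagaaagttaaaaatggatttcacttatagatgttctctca
AT5G15720: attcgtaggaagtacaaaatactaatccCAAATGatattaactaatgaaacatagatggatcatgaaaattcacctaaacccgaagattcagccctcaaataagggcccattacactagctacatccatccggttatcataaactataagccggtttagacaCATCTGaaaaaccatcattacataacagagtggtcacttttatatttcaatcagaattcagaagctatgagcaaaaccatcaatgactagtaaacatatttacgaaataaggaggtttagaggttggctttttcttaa
A match is a run of letters and not a shown binding site, and a window without one says nothing about binding elsewhere.

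Genes of floral tissues and lipid pathways are given beside the GDSL genes. Of 14 tapetum and pollen wall genes, the authors' deposited table called 13 as higher, and GRP17, a pollen coat gene, did not pass (5.25, adjusted p = 0.108). Their log2 fold changes ran from 2.32 to 5.25 with a median of 3.75. The tapetum regulator AMS (3.47, adjusted p = 2.8e-07), the sporopollenin reductase gene TKPR1 (3.58, adjusted p = 2.8e-07) and the tapetum factor gene MYB80 (3.82, adjusted p = 7.9e-07) were among those that rose in the authors' deposited table. Of 20 measured cutin and surface lipid genes, 3 fell, none rose and the test left 17 uncalled, with a median of -0.21 in the authors' deposited table. The 3 were the acyltransferase gene GPAT8 (-0.35, adjusted p = 0.0067) and the acyl-CoA synthetase genes LACS1 (-0.28, adjusted p = 0.031) and LACS2 (-0.29, adjusted p = 0.035) in the authors' deposited table. Epidermal genes fell in 4 of 6 cases, among them ATML1 (-0.40, adjusted p = 0.0039) and MYB16 (-0.56, adjusted p = 0.0052), with a median of -0.32 in the authors' deposited table.

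All 5 genes of photosynthetic tissue fell, with a median of -0.55 in the authors' deposited table, the light-harvesting gene LHCB1.1 by the most (-1.40). Of 6 carpel and ovule genes 3 rose, the MADS genes STK (6.09), SHP1 (1.53) and SHP2 (2.58), and 3 were not called in the authors' deposited table. Of 6 mature pollen genes 2 were in the table, and ACT12, an actin gene, was the 1 that the authors' deposited table called as higher (9.31, adjusted p = 0.016). Of 2 nectary genes 1 was in the table. This was the invertase gene CWINV4, which rose as well in the authors' deposited table (4.96, adjusted p = 0.0039), at 1.63 log2 CPM. The part of these tissues in the values of the GDSL genes was not tested.

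**Figure D5:**
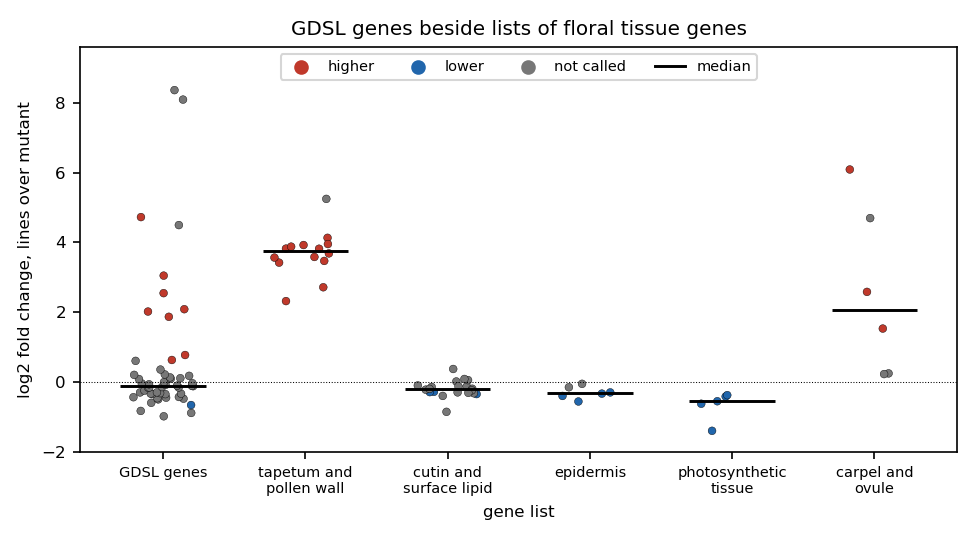
Plotted is the log2 fold change (points, lines over triple mutant) of the 51 GDSL genes and of the measured genes of 5 lists in the authors' deposited table, with the median of each as a black line. The median of the GDSL genes is -0.11, that of the tapetum and pollen wall genes 3.75 and that of the cutin and surface lipid genes -0.21.

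Some further genes were linked to the GDSL genes by annotated names alone. Whether their proteins share the same fold was not tested. Of 8 genes named SGNH hydrolase-type esterase, AT4G10950 rose (2.81, adjusted p = 7.6e-05), AT3G11210 fell (-0.36, adjusted p = 0.030) and 6 did not pass the test in the authors' deposited table. RXW8 (AT1G58520), with GDSL in its RefSeq product but not in its name there, fell as well (-0.39, adjusted p = 0.019). AT1G11320 (0.06), AT3G03210 (0.26) and PMR5 (AT5G58600, 0.11), of the same kind, did not pass the test in the authors' deposited table.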

How the data were processed

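STAR, featureCounts, edgeR and the TAIR10 build are named in the submitters' processing notes. How strand, shared reads and low counts were handled, tool versions, the control libraries and the model: not given in the sources used here. Analysed here was 1 table deposited by the authors, which holds an F statistic (a score), a p-value, an adjusted p-value and, on the log2 scale, fold change and average CPM, the output form of edgeR's quasi-likelihood F-test. Its file name orders the groups as SEP3Δtet lines against the triple mutant, so positive values are read as higher in the lines. With no value per library, no test across samples was fitted and depth per sample is unknown. Adjusting the p-values over all 19777 genes by Benjamini-Hochberg gave the deposited adjusted values to within 1.8e-15.

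Calls are adjusted p under 0.05. The approximate standard error is the absolute log2 fold change divided by the square root of F. Gene models, windows and coding sequences come from RefSeq TAIR10.1, matched by locus identifier, and coding sequences were aligned globally with Biopython 1.88. The table holds no coordinates. The code was checked on simulated data.

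The genes and lists were chosen with earlier results of these data known. Named are GDSL genes that passed the test, carry a symbol or stand on a list of individually described loci, are among the 3 most abundant, or lie in runs of at least 3 GDSL genes, 30 in all, and up to 3 called genes per list. AT1G06990, AT5G45950, AT1G33811, AT4G28780, AT1G71691, GRP17, AT4G10950 and AT3G11210 were named outside that rule or after their values were seen. The same holds for RXW8, AT1G11320, AT3G03210 and PMR5. The CANNTG search was added after the data were seen. The gene and window that hold the CArG box are not reported here. Alternatives were stricter thresholds, a minimum fold, a minimum abundance, centred fold changes, the left-out genes added back and parts of the window.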

Additional observations from a re-analysis of the deposited data

How the results depend on the processing

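The main counts were 9 called, 8 higher and 1 lower. A Bonferroni adjustment moved all 3 by more than 1.5 times: 4 genes were called, 4 higher and 0 lower, so AT1G20132, AT3G53100, AT3G62280, AT4G16230 and AT5G45960 lost their calls. In the next settings the count of lower genes alone moved that far. With an absolute log2 fold change of at least 1, 6 were higher and 0 lower, and with the left-out identifiers added back, 9 were higher and 2 lower, 11 in all. A threshold of 0.01 on the adjusted p left 8 genes called, a minimum of 1 log2 CPM left 8, and with fold changes centred on abundant genes (median -0.04) 9, with the same directions. The median of the GDSL genes ran from -0.11 to -0.07 over these settings. In the first part of the window the CArG share of the GDSL genes was 0%, which 51 windows cannot tell from 1.96%. No paired analysis was possible because the values come from 1 deposited comparison with no value per library, and fits that leave out 1 line were not run for the same reason. Depth limits the scarce genes most, but its size per library is unknown.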

Other observations

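Of the 5 identifiers left out of the GDSL genes by the rule, AT1G75920 rose in the authors' deposited table (3.91 on the log2 scale, approximate SE 0.80, adjusted p = 0.0075). EXL4 (AT1G75910, 6.31, approximate SE 3.49) and EXL6 (AT1G75930, 10.05, approximate SE 4.87), extracellular lipase genes of the pollen coat beside it on chromosome 1, did not pass the test in the authors' deposited table. ESM1 (AT3G14210), which acts in glucosinolate breakdown and neighbours AT3G14220, fell by 2.08 on the log2 scale in the authors' deposited table (approximate SE 0.28, adjusted p = 0.0011). AT5G33370 stood at -0.28 (adjusted p = 0.184) at 9.69 log2 CPM in the authors' deposited table, above the abundance of every one of the 51 GDSL genes described.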
